A study of Homo sapiens with 6 samples.

Results

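The genes described here are YAP1 and WWTR1, which encode the transcriptional coactivators YAP and TAZ, the DNA-binding partners TEAD1 and TEAD4, and 6 genes known as direct YAP/TAZ-TEAD targets, CCN1, CCN2, ANKRD1, AMOTL2, AXL and LATS2. These 10 genes were chosen by name, with earlier results of these data known. They are 10 of 17860 genes in the deposited table, in which each of them had a value in every sample. mRNA was sequenced in HCC1806/HM3 cells, a third-passage liver-metastatic derivative of the human triple-negative breast cancer line HCC1806, labelled as breast squamous cell carcinoma cells. Both groups were lentivirally transduced and kept as stable lines after G418 selection. The 3 shNC samples carried a control shRNA and the 3 shMSLN samples an shRNA against MSLN, which encodes mesothelin, a GPI-anchored surface protein. The labels name neither the shRNA sequence nor a second knockdown line or rescue, and nothing states that the replicates came from separate cultures, so p-values may measure technical spread alone. The comparison asked how these transcripts differ between cells with reduced MSLN and control cells.

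In the Hippo pathway, the kinases MST1 and MST2 activate LATS1 and LATS2, which phosphorylate YAP and TAZ and keep them in the cytoplasm. Unphosphorylated YAP and TAZ enter the nucleus and bind TEAD factors, which recognise a short motif in promoters and enhancers and have no strong activating function alone. CCN1 and CCN2 are the targets most often read out as pathway activity, while LATS2 and AMOTL2 are targets whose products restrain YAP. The activity of YAP and TAZ is set largely by phosphorylation and location, which RNA levels do not measure.

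Totals of 17507837 to 18512135 estimated counts per sample lay behind these values. CPM values are counts scaled with TMM to a common library total, and TPM values are the length-scaled ones of the authors. A gene was called higher or lower when its edgeR quasi-likelihood p, after Benjamini-Hochberg adjustment over 14552 tested genes, was below 0.05. MSLN stood at 231, 226 and 228 CPM in the shNC samples and at 37.1, 36.2 and 35.4 CPM in the shMSLN samples, a log2 fold change of −2.65 (SE 0.042). The 5 epithelial markers were each at 1 TPM or more in every sample, with sums of 4358 to 4726 TPM in shNC and 4614 to 4884 TPM in shMSLN. The 5 basal and squamous markers, also all present, summed to 2711 to 2982 TPM in shNC and 2305 to 2352 TPM in shMSLN. Among them, KRT5 (log2 fold change −0.38), KRT6A (−1.03) and TP63 (−0.22) were lower, KRT17 (0.16) was higher, and KRT14 was not called. Among the fibroblast markers, 2 of 5 reached 1 TPM in every sample, and the sums were 12.9 to 13.4 TPM in shNC and 13.4 to 14.2 TPM in shMSLN, with COL1A2 and COL3A1 at or below 0.19 TPM. Endothelial markers (1 of 3 at 1 TPM or more) summed to 2.39 to 2.83 TPM and 2.46 to 2.86 TPM. Leukocyte markers (2 of 3) summed to 5.17 to 6.07 TPM in shNC and 6.57 to 7.23 TPM in shMSLN, with CD3E at or below 0.10 TPM, and ALB, the 1 of 3 hepatocyte markers with a value in every sample, did not exceed 0.06 TPM. The part of these marker differences in the results below was not tested.

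The levels per transcript length differed widely among the 10 genes. In the shNC samples the order of mean TPM was YAP1 (186 ± 20.4, SD, n = 3), AMOTL2 (71.5), TEAD1 (41.9), TEAD4 (24.2), WWTR1 (24.2), AXL (10.7), CCN1 (7.83), LATS2 (7.58), CCN2 (7.10) and ANKRD1 (0.66). The ranges of TEAD4 and WWTR1 overlapped, as did those of CCN1 and LATS2 and of LATS2 and CCN2, whereas every other pair of neighbours stood apart. In the shMSLN samples CCN1 (13.8 TPM) stood above AXL (11.3 TPM), and CCN2 (10.0 TPM) above LATS2 (7.70 TPM), with no overlap in either pair. WWTR1 and TEAD4 again overlapped, at 24.3 and 24.2 TPM. The 3 most abundant of the genes kept their places, with YAP1 at 162 ± 6.67, AMOTL2 at 88.4 and TEAD1 at 52.0 TPM.

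**Figure D1:**
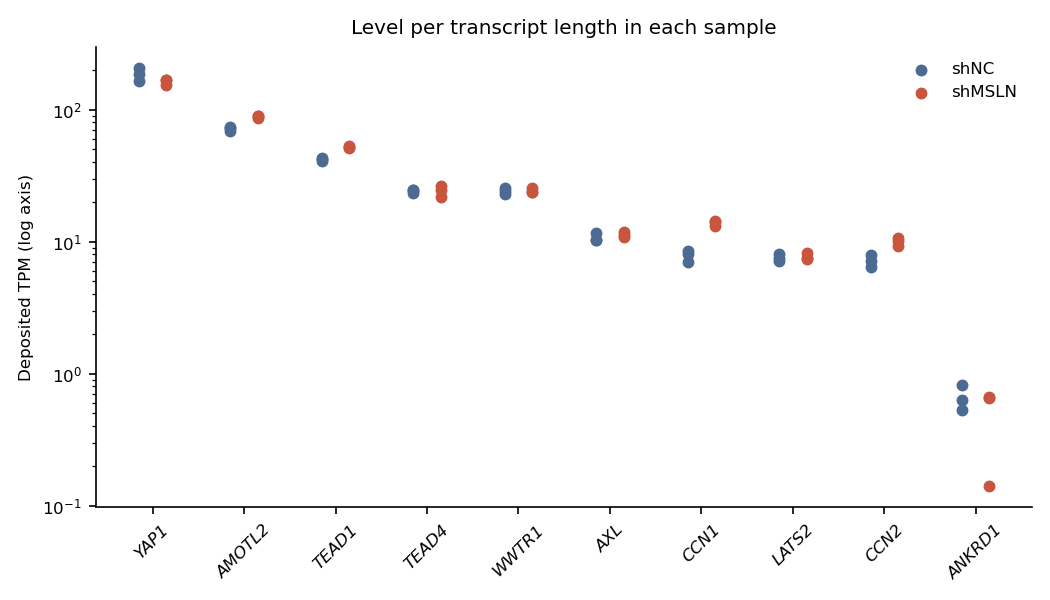
Deposited TPM (log axis) of the 10 genes in each of the 3 shNC (blue) and 3 shMSLN (red) samples, in the order of the shNC mean. YAP1 was the most abundant at 186 TPM in shNC and ANKRD1 the least at 0.66 TPM, and CCN1 moved from among LATS2 and CCN2 to above AXL.

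Of the 10 genes, 9 passed the filter on low counts. 4 of these 9 were higher in shMSLN (CCN1, CCN2, TEAD1 and AMOTL2), 1 was lower (YAP1), and 4 were not called (WWTR1, TEAD4, AXL and LATS2). In all, 5032 of 14552 tested genes (34.6%) were called, 16.6% higher and 18.0% lower, against 55.6% of these 9 genes. With limma on log2(TPM + 1), where fewer genes were lower, 61.0% of all calls were higher, against 47.9% here. The median log2 fold change of the 9 was 0.034, beside 0.0019 over all tested genes, and the median absolute change was 0.23, beside 0.14. With 9 genes this is a description of the genes and no test of the group.

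**Figure D2:**
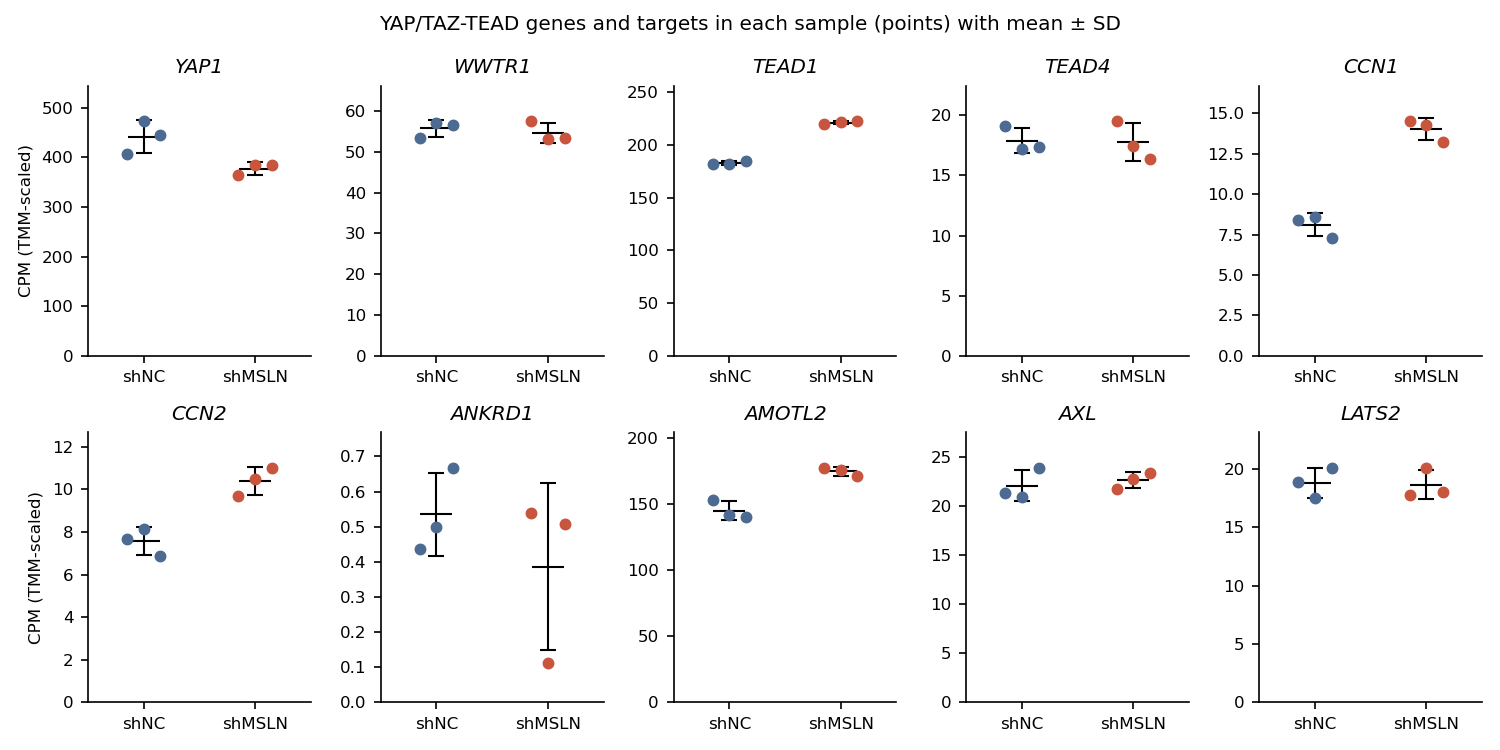
CPM of each of the 10 genes in each sample (points; linear axes from 0, a different scale per gene), with the mean and SD of the 3 samples of each group. The groups stand apart for YAP1, TEAD1, CCN1, CCN2 and AMOTL2 and overlap for WWTR1, TEAD4, ANKRD1, AXL and LATS2. Over all tested genes, the groups did not overlap in 46.2%, counting either direction.

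YAP1 (NCBI Gene 10413, GRCh38 chr11:102110461-102233423, forward strand), the coactivator gene with the higher TPM here, was lower in shMSLN. Its values were 406, 473 and 445 CPM in the shNC samples and 363, 384 and 385 CPM in the shMSLN samples. The lowest shNC sample was above the highest shMSLN sample, as in 46.2% of all tested genes in either direction. Means of 441 ± 33.3 and 377 ± 12.2 CPM (SD, n = 3 each) correspond to −0.23 as log2 fold change (SE 0.048, 95% interval −0.33 to −0.12, edgeR adjusted p = 0.0023). On log2(TPM + 1) with limma the change was −0.19 and was not called (adjusted p = 0.0611). In RNA of whole cultures, a small change in every cell and a larger one in some cells cannot be told apart. Antisense genes overlap exons of YAP1, WWTR1, CCN2 and AXL, and a pseudogene on the same strand lies in AMOTL2. These overlapping genes were not analysed here, and whether counting used strand is not given in the sources used here.

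WWTR1 (NCBI Gene 25937; chr3:149517235-149736714, reverse strand), the gene of the paralogous coactivator TAZ, was not called. It stood at 53.4, 57.1 and 56.6 CPM in shNC and 57.5, 53.1 and 53.3 CPM in shMSLN, so the groups overlapped. The log2 fold change was −0.027, and its 95% interval of −0.14 to 0.081 lies above the YAP1 estimate of −0.23. YAP1 made up 88.5% ± 0.55 of the summed YAP1 and WWTR1 TPM in shNC and 87.0% ± 0.89 in shMSLN, with no overlap (exact permutation p = 0.1). In this two-sided test 0.1 is the lowest p that groups of 3 can reach. The sum itself was 210 ± 21.8 TPM in shNC and 187 ± 5.80 TPM in shMSLN (exact permutation p = 0.3). Within a sample, the log2 ratio of YAP1 to WWTR1 CPM was 0.19 lower on average in shMSLN than in shNC. This ratio was lower in each of the 3 shMSLN samples than in any shNC sample (exact permutation p = 0.1), and in TPM YAP1 was 7.68 times WWTR1 in shNC and 6.69 times in shMSLN.

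TEAD1 (NCBI Gene 7003; chr11:12674591-12944483, forward strand) was higher in shMSLN. The shNC samples lay at 182, 182 and 185 CPM and the shMSLN samples at 219, 222 and 222 CPM. The groups did not overlap, as in 46.2% of all tested genes in either direction. Their SDs were 1.67 and 1.62 CPM (n = 3 each). The rise was 1.21-fold (log2 fold change 0.28, SE 0.035, 95% interval 0.20 to 0.35, edgeR adjusted p = 2.85e-05). TEAD4 (NCBI Gene 7004; chr12:2959330-3040673, forward strand) showed no such difference, with 19.1, 17.2 and 17.4 CPM in shNC and 19.5, 17.4 and 16.4 CPM in shMSLN. Its log2 fold change was −0.0089 (95% interval −0.18 to 0.16), an interval that lies below the lower bound of TEAD1. The log2 ratio of TEAD1 to TEAD4 CPM was 0.29 higher in shMSLN, without overlap (exact permutation p = 0.1), and in TPM TEAD1 was 1.73 times TEAD4 in shNC and 2.15 times in shMSLN.

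The other TEAD paralogues and the VGLL cofactors, which bind TEADs through a motif that competes with YAP and TAZ, were read from a list of 6 genes. Of the 5 tested, 1 was higher, 1 was lower and 3 were not called, with a median log2 fold change of 0.11. The share called was 40.0%, beside 34.6% of all tested genes. VGLL1 rose from 51.2 ± 1.81 to 89.3 ± 2.48 CPM (log2 fold change 0.80, SE 0.047, edgeR adjusted p = 1.17e-08). TEAD2 fell from 22.7 ± 2.17 to 16.5 ± 0.57 CPM (log2 fold change −0.47, edgeR adjusted p = 0.000354). TEAD3, at 80.6 and 83.1 CPM, had an adjusted p of 0.461, VGLL3 (27.9 and 31.4 CPM) one of 0.0685 and VGLL4 (101 and 110 CPM) one of 0.0985 in the edgeR test. Both VGLL3 and VGLL4 were called higher in 4 of 18 alternatives, with an edgeR adjusted p of 0.0363 and 0.0390 under upper-quartile scaling, 0.0405 and 0.0458 with total counts only, 0.0244 and 0.0459 with the replicate block, and 0.0144 and 0.0161 without shNC replicate 2. VGLL2 was too low to test, with at most 3 counts per sample. TEAD1 accounted for 27.9, 28.1 and 28.4% of the summed TPM of TEAD1 to TEAD4 in the shNC samples and 32.5, 33.1 and 34.2% in the shMSLN samples (exact permutation p = 0.1). The sum moved less, from 149 ± 2.82 to 156 ± 2.29 TPM, and its groups did not overlap either (exact permutation p = 0.1).

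TEAD factors recognise the letters GGAATG, which were searched on both strands of the 250 bases before each RefSeq start site of the genes that had a promoter entry (GRCh38.p14). Windows were found for 7 of the 10 genes, YAP1, WWTR1, CCN2, ANKRD1, AMOTL2, AXL and LATS2, and 5 of these held the motif in at least 1 window. Over 35116 windows of the same length, 11.9% held at least 1 match, 0.94% at least 2 and 0.0826% (29 windows) at least 3. These shares are per window, whereas the 5 of 7 counts genes, of which WWTR1, AMOTL2 and AXL had 2 windows each. CCN2 held 3 matches, beginning 169, 104 and 95 bases before its start, the last pair 3 bases apart, and ANKRD1 held 2, at 220 and 128 bases. YAP1 held 1 match, at 162 bases, and the second listed starts of AMOTL2 and AXL 1 each, at 69 and 212 bases. WWTR1, LATS2 and the first starts of AMOTL2 and AXL held 0, as did all 7 genes for the AP-1 motif TGACTCA, searched in the same way, which 4.20% of all windows held. The windows with most matches are printed with those of the AMOTL2 second start and YAP1 because these 4 genes behaved differently in the data, CCN2 and AMOTL2 being higher, YAP1 lower and ANKRD1 too low to test. Capitals mark the TEAD motif on either strand, and each sequence reads 5′ to 3′ on the strand of the gene. A match is a description of the letters only.
CCN2 (chr6:131951373-131951622, reverse strand): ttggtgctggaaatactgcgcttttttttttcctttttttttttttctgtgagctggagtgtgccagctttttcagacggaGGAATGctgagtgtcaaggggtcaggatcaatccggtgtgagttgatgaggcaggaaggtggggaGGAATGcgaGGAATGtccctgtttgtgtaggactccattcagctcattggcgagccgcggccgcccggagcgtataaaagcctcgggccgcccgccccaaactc
ANKRD1 (chr10:90921088-90921337, reverse strand): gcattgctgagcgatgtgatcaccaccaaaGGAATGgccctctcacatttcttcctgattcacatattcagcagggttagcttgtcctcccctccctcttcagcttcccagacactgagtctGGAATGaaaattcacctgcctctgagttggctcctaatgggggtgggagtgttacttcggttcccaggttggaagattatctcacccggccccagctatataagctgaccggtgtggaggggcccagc
AMOTL2, second start (chr3:134374448-134374697, reverse strand): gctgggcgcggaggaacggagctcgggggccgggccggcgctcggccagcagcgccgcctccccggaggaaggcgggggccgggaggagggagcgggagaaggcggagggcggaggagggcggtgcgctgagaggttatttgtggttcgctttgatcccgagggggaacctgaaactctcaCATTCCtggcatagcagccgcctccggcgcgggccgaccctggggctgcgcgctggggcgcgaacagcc
YAP1 (chr11:102110197-102110446, forward strand): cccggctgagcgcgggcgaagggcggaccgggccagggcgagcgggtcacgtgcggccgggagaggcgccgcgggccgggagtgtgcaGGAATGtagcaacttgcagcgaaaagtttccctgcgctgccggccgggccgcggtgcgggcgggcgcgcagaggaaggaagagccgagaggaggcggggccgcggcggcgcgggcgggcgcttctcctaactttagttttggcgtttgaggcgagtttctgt

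CCN1 (NCBI Gene 3491; chr1:85580761-85583962, forward strand), also called CYR61, encodes a secreted matricellular protein that binds integrins, and it had the largest change of the 9 tested genes. Its values were 8.43, 8.59 and 7.29 CPM in shNC and 14.5, 14.3 and 13.2 CPM in shMSLN, from 131 to 155 reads and 234 to 270 reads. Every shMSLN sample was above every shNC sample, where 46.2% of all tested genes had no overlap in either direction. The means were 8.10 ± 0.709 and 14.0 ± 0.697 CPM, a 1.73-fold rise (log2 fold change 0.79, SE 0.095, 95% interval 0.59 to 0.99, edgeR adjusted p = 1.74e-05).

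CCN2 (NCBI Gene 1490; chr6:131948176-131951373, reverse strand), also called CTGF, is a second matricellular protein of the same family and the gene with 3 motif matches above. It stood at 7.66, 8.15 and 6.85 CPM in shNC and at 9.68, 10.5 and 11.0 CPM in shMSLN. The groups did not overlap, and the smallest gap, between 8.15 and 9.68 CPM, was wider than either SD (0.658 and 0.674). The mean rose 1.37-fold (log2 fold change 0.46, SE 0.105, 95% interval 0.24 to 0.68, edgeR adjusted p = 0.00345). Against the shNC mean, shMSLN replicates 1, 2 and 3 were higher by 0.36, 0.48 and 0.55 on the log2 scale. Without shMSLN replicates 2 and 3, in which 47.7% of counts above 100 reads were whole numbers against 3.36 to 7.02% in the other samples, CCN2 was not called (log2 fold change 0.36, edgeR adjusted p = 0.178). In the same fit the log2 fold changes of CCN1, TEAD1, AMOTL2 and YAP1 were 0.84, 0.26, 0.29 and −0.28, from 1 shMSLN sample.

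The rise of CCN1 was larger than that of CCN2 by point estimate, but their 95% intervals overlap. The log2 ratio of CCN1 to CCN2 CPM was 0.14, 0.076 and 0.091 in the shNC samples and 0.59, 0.45 and 0.26 in the shMSLN samples. The level of this ratio is not length-scaled, so only its change is read. It was 0.33 higher in shMSLN and the groups did not overlap (exact two-sided permutation test, p = 0.1). The 3 within-sample ratios, YAP1 to WWTR1, TEAD1 to TEAD4 and CCN1 to CCN2, were all of those compared. Without shMSLN replicates 2 and 3, the differences in these ratios were −0.32, 0.14 and 0.48, so that of TEAD1 to TEAD4 shrank and that of YAP1 to WWTR1 grew by more than 1.5 times. None of the ratios can pass 0.05 at this sample size with or without adjustment.

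AMOTL2 (NCBI Gene 51421; chr3:134355874-134375479, reverse strand) encodes an angiomotin-like protein that holds YAP at junctions and in the cytoplasm. It stood at 153, 142 and 140 CPM in shNC and at 178, 176 and 171 CPM in shMSLN. Every shMSLN sample was above every shNC sample, and the mean rose from 145 ± 7.05 to 175 ± 3.17 CPM (log2 fold change 0.27, SE 0.042, 95% interval 0.18 to 0.36, edgeR adjusted p = 0.000181). The size of the rise was close to that of TEAD1, and the 95% intervals of the pair overlap.

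AXL (NCBI Gene 558; chr19:41219203-41261766, forward strand), a receptor tyrosine kinase, was not called. Its values were 21.3, 20.9 and 23.9 CPM in shNC and 21.7, 22.7 and 23.3 CPM in shMSLN. The groups overlapped, and the log2 fold change was 0.034 (95% interval −0.12 to 0.18). LATS2 (NCBI Gene 26524; chr13:20973032-21061547, reverse strand), the kinase that phosphorylates YAP and is itself a YAP target, was not called either. It stood at 18.8, 17.5 and 20.1 CPM in shNC and 17.8, 20.1 and 18.0 CPM in shMSLN, with a log2 fold change of −0.014 (95% interval −0.18 to 0.15). The upper bounds of AXL and LATS2 lie below the lower bounds of CCN1 and CCN2.

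ANKRD1 (NCBI Gene 27063; chr10:90912096-90921276, reverse strand), which encodes a cardiac ankyrin repeat protein and is a widely used YAP target, was close to the limit of detection. It had 8, 9 and 12 reads in shNC and 10, 2 and 9 reads in shMSLN, between 0.11 and 0.67 CPM, and did not pass the filter. The groups overlapped (exact permutation p = 0.6). The log2 ratio of its mean CPM was −0.47, and −0.033 without shMSLN replicate 2, the sample with 2 reads. In a fit with no filter beyond 1 count its edgeR adjusted p was 0.518, so a difference was not detectable at this depth.

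**Figure D3:**
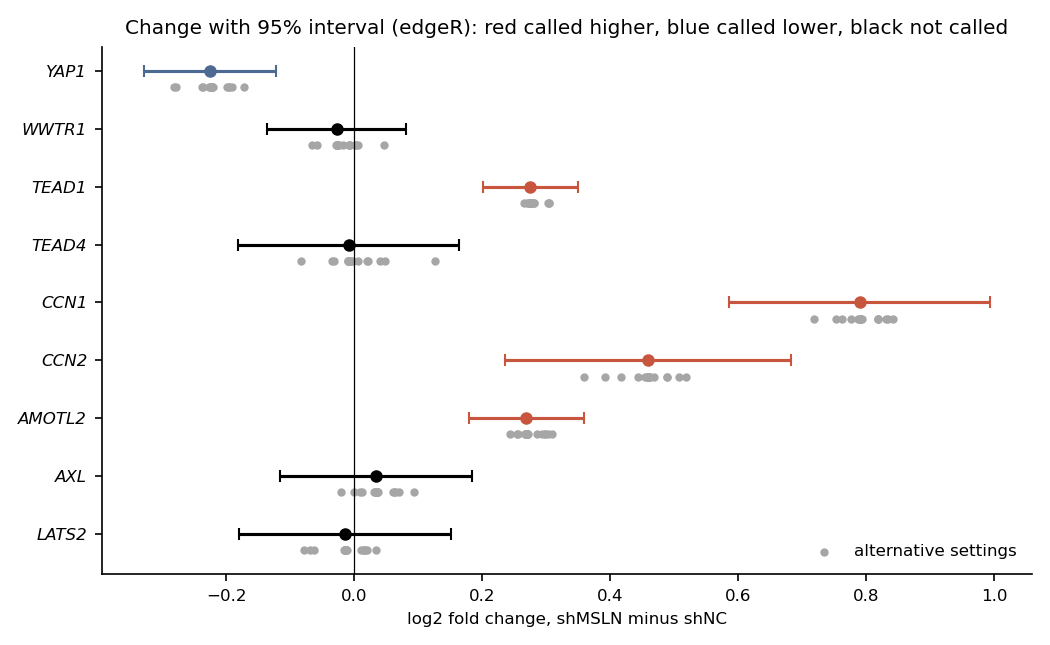
Log2 fold change (shMSLN minus shNC) of the 9 tested genes with the 95% interval from edgeR, red called higher, blue called lower, black not called. Grey points are the same change under each of the 18 alternative settings, and those of CCN1 lie between 0.72 and 0.84 while those of WWTR1, TEAD4, AXL and LATS2 lie on both sides of 0.

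The rest of the pathway was read from 5 lists of 66 genes, of which 60 were tested. Of these, 17 were higher, 15 lower and 28 not called (53.3% called), with a median log2 fold change of 0.035. Over all tested genes 34.6% were called, 16.6% higher and 18.0% lower, and no set test was made. Hippo kinases and upstream regulators numbered 27, and AMOT, at up to 9 reads, was too low to test. Of the 26 tested, 6 were higher, 7 lower and 13 not called, and the median was −0.0041. FAT4, an atypical cadherin that acts upstream of Hippo, rose from 5.33 ± 0.502 to 11.3 ± 0.501 CPM (log2 fold change 1.09, edgeR adjusted p = 2.52e-06). The other 5 genes of this list with the smallest adjusted p were lower. NF2 (merlin, which recruits LATS to the membrane) fell from 42.6 to 34.1 CPM, WWC3 from 45.2 to 32.2 CPM, WWC2 from 45.5 to 36.2 CPM, MAP4K4, a kinase of LATS, from 148 to 122 CPM, and BTRC, the ubiquitin ligase subunit that targets phosphorylated YAP and TAZ, from 41.7 to 30.3 CPM. WWC2, at a log2 fold change of −0.33, was not called with limma on log2(TPM + 1) (−0.27, adjusted p = 0.0633) or without shMSLN replicates 2 and 3 (−0.37, adjusted p = 0.0606).

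Of 16 further genes known as YAP/TAZ-TEAD targets, all were tested, 4 were higher, 5 were lower and 7 were not called. The share called was 56.2%, beside 34.6% of all tested genes, and the median log2 fold change was −0.0044. CCDC80, a secreted matrix protein, rose from 79.7 to 141 CPM (log2 fold change 0.83), PTPN14, a phosphatase that binds YAP, from 194 to 264 CPM (0.44), and CRIM1, a transmembrane regulator of BMP signalling, from 239 to 283 CPM (0.25). IGFBP3, an insulin-like growth factor binding protein, fell from 3654 ± 148 to 2532 ± 19.1 CPM (−0.53), TGFB2, a TGF-β ligand, from 59.7 to 39.8 CPM (−0.59), and F3, tissue factor, from 121 to 91.1 CPM (−0.40). All 6 had an adjusted p of at most 0.000193 in the edgeR test. The same list therefore held called genes in both directions. Among the 10 genes above, the called targets CCN1, CCN2 and AMOTL2 were all higher. AXL and LATS2 were not called, ANKRD1 was not tested, and the only lower gene was YAP1, a coactivator.

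SRF and MRTF, which share many matricellular and cytoskeletal targets with YAP/TAZ, were read from 13 genes. Of these, 11 were tested, FILIP1L having no value in at least 1 shMSLN sample and CNN1 not being in the table used here. Of the 11, 5 were higher, 1 was lower and 5 were not called, with a median of 0.10. The higher ones were MYL9 (48.4 to 62.9 CPM), ACTA2 (8.07 to 11.0), FHL2 (16.0 to 20.1), TPM1 (54.3 to 63.0) and TAGLN (3.40 to 5.32 CPM), all of which encode actin cytoskeleton or smooth muscle proteins, FHL2 being a LIM-domain cofactor. Without shMSLN replicates 2 and 3, FHL2, TPM1 and TAGLN were not called, with adjusted p of 0.149, 0.119 and 0.133. Their log2 fold changes were then 0.27, 0.20 and 0.63, against 0.33, 0.21 and 0.64 with all samples. VCL, vinculin, which links integrins to actin, fell from 159 to 121 CPM (log2 fold change −0.40). Of the other CCN genes, CCN6 rose from 13.9 ± 0.090 to 25.0 ± 0.649 CPM (0.85, edgeR adjusted p = 2.04e-07), while CCN3, at 2.01 ± 0.431 and 0.905 ± 0.365 CPM, fell (−1.14, adjusted p = 0.00725), a call that was absent without shMSLN replicates 2 and 3, where the change was −1.22 (adjusted p = 0.0685). CCN4 and CCN5 were too low to test, with at most 9 and 17 reads in a sample. On log2(TPM + 1), a scale that understates changes of low genes, CCN3 changed by −0.62 and FAT4 by 0.64. No set test was made on any list, and 34.6% of all tested genes were called.

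**Figure D4:**
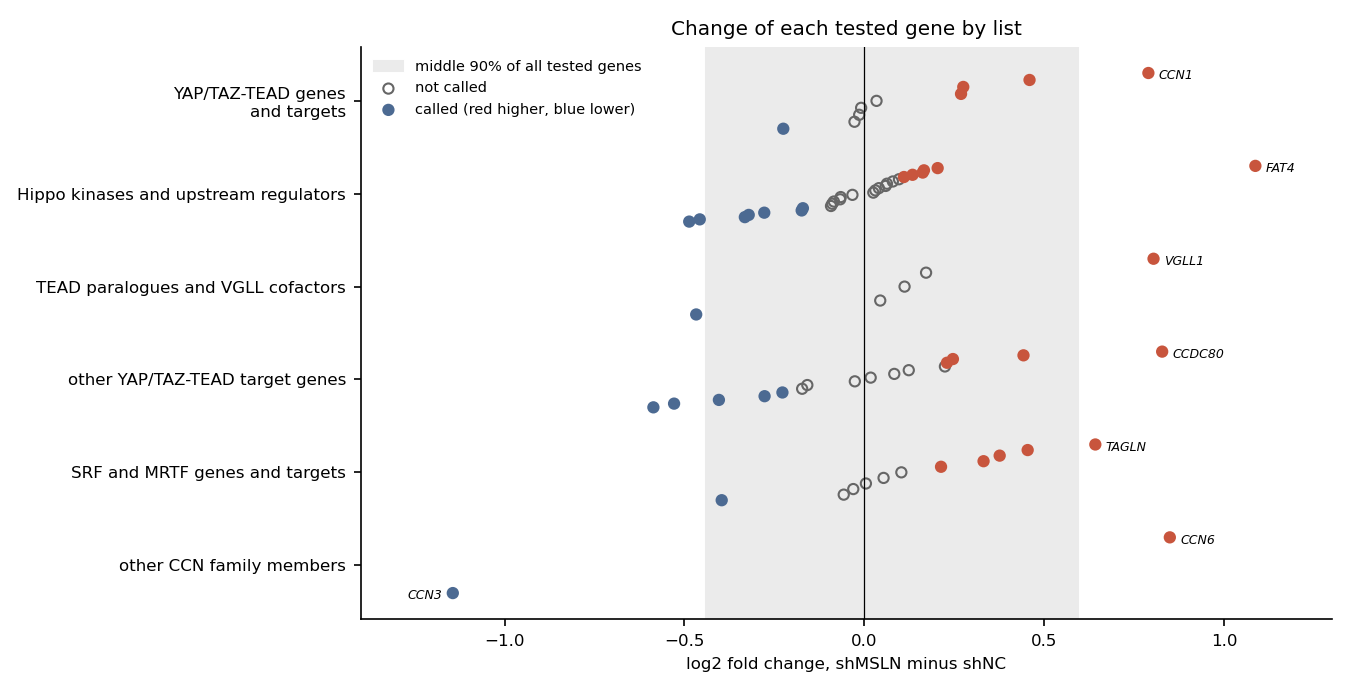
Log2 fold change (shMSLN minus shNC) of every tested gene in 6 lists, filled where called (red higher, blue lower) and open where not, with the grey band holding the middle 90% of all tested genes (−0.44 to 0.59). Each list with more than 2 genes holds genes on both sides of 0. CCN1, FAT4, VGLL1, CCDC80, CCN6 and TAGLN lie to the right of the band, and CCN3, TGFB2, IGFBP3, WWC3, TEAD2 and BTRC to its left.

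The 3 genes whose pattern over the 6 samples was nearest to that of CCN1, the member with the smallest adjusted p, were CPE, a carboxypeptidase, NRXN2, a neurexin, and FCGRT, the neonatal Fc receptor. The Euclidean distance between log2 CPM profiles centred on their means was 0.137, 0.140 and 0.150, among 13745 genes compared. CPE stood at 6.54 ± 0.609 and 11.0 ± 0.834 CPM, NRXN2 at 3.19 ± 0.260 and 5.30 ± 0.0307 CPM, and FCGRT at 16.7 ± 1.46 and 30.4 ± 0.313 CPM. In the same ordering CCN2 ranked 392, AMOTL2 1192 and TEAD1 1259, and the other tested members ranked between 6243 and 11546. A distance of this kind reflects the size and direction of the change more than any relation between genes.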

How the data were processed

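BGI sequenced oligo(dT)-enriched mRNA from 3 samples of each group, and groups were taken from the sample labels. The authors deposited estimated counts, FPKM and TPM per gene. The notes of the submitters name GRCh38.p13, and the aligner, quantifier and annotation are not given in the sources used here. Some values in the shMSLN columns are missing marks, so only the 16573 of 17860 genes complete across 6 samples entered the analysis, and 0 columns of other samples were left out. The deposited FPKM values were not used.

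Estimated counts were rounded and compared by the quasi-likelihood test of edgeR 4.0.16 under R 4.3.3 (filterByExpr, TMM, glmQLFit, glmQLFTest, no covariate). Standard errors are the absolute log2 fold change divided by the square root of F. Deposited TPM values served for levels between genes and for limma 3.58.1 on log2(TPM + 1). A further alternative was DESeq2 1.42.0. Exact permutation tests were two-sided. The fit was also run on simulated counts with independent samples and a fixed dispersion, which does not check the calls made here.

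The genes, lists and rules were chosen with earlier results of these data known. The named-gene rule covered MSLN, the 10 genes, the 6 genes of each list with the smallest adjusted p, and the 3 genes nearest to the member with the smallest adjusted p. VGLL2, AMOT, CCN4, CCN5, FILIP1L and CNN1 are named in addition because they were not tested. Gene coordinates are from GENCODE release 29 on GRCh38 and promoter windows from RefSeq on GRCh38.p14.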

Additional observations from a re-analysis of the deposited data

How the results depend on the processing

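The 18 alternatives covered scaling, filters on low counts, the test, missing values, the replicate number as a block and the samples used. CCN1, TEAD1 and AMOTL2 were called in all 18 and CCN2 and YAP1 in 17, and 5 of the 9 tested genes were called in 16 alternatives. Of all tested genes, 2411 were higher and 2621 lower, and limma on log2(TPM + 1) gave 2648 higher and 1690 lower. The balance also turned with upper-quartile scaling (2911 higher, 2149 lower) and total counts only (2905 higher, 2135 lower). Without shMSLN replicates 2 and 3, where the lone shMSLN sample is assumed to vary like the shNC samples, 876 were higher and 921 lower, and 18 of the other pathway genes were called in place of 32. With 1 sample left out in turn, 1775 to 2570 genes were higher, 1920 to 2829 lower, 5 members and 30 to 36 other pathway genes were called. The log2 fold changes that changed sign were all of genes not called. WWTR1 was at 0.0018 with upper-quartile scaling, 0.0023 with total counts only, 0.0058 with limma on log2(TPM + 1) and 0.047 without shMSLN replicates 2 and 3. TEAD4 was at 0.020, 0.021 and 0.13 with upper-quartile scaling, total counts only and without those replicates, and −0.083 to 0.048 with 1 sample left out. AXL was at −0.020 without those replicates and −0.00081 to 0.093 with 1 sample left out. LATS2 was at 0.015, 0.016 and 0.020 with upper-quartile scaling, total counts only and limma on log2(TPM + 1), and −0.070 to 0.034 with 1 sample left out. With the replicate block, 2785 genes were higher and 3004 lower, and the same number of members, 5, was called. The deviations of same-numbered samples correlated at 0.197, 0.0803 and 0.0863, and each sample correlated best with its own number. The main fit did not pair the samples, and whether the numbers mark a pairing was not tested. The cause of these changes was not tested. At 17507837 to 18512135 counts per sample, a difference in ANKRD1, with 2 to 12 reads per sample, could not be resolved.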
